A study of Homo sapiens with 12 samples.

Results

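CYP27A1, HAS3 and LIPC are 3 of the 23106 gene symbols counted in RCC4 cells, and they were chosen by their counts, which were higher with HIF1A siRNA than with control siRNA in these libraries. RCC4 is a human line grown from a clear cell renal carcinoma, and it lacks functional VHL. All 12 cultures were transfected with siRNA pools at 2 nM in total and harvested after 48 h, with 3 replicates in each of 4 groups: 2 nM control (non-targeting) siRNA; 1 nM HIF1A siRNA with 1 nM control siRNA; 1 nM HIF2A siRNA (against EPAS1) with 1 nM control siRNA; and 1 nM of each HIF siRNA with no control siRNA, called the double knockdown here. There was 1 cell line and 1 siRNA pool per target, so that an effect of the lower HIF mRNA and an effect of that pool on other transcripts cannot be told apart. Fragments per gene were counted in each library, with totals from 13263168 to 20451433, and levels are given in CPM, counts per 1000000 counts of a library after its total was scaled by TMM factors.

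HIF-1 and HIF-2 are transcription factors that pair an oxygen-regulated alpha subunit, encoded by HIF1A or EPAS1, with the shared beta subunit ARNT, and that bind DNA at a short core of ACGTG or GCGTG. The VHL protein marks both alpha subunits for destruction at normal oxygen, so cells without it keep HIF active in air. CYP27A1 encodes sterol 27-hydroxylase, a mitochondrial cytochrome P450 that makes 27-hydroxycholesterol, acts in bile acid synthesis and can also hydroxylate vitamin D. HAS3 encodes 1 of the 3 hyaluronan synthases, membrane enzymes that extrude the polysaccharide hyaluronan out of the cell. LIPC encodes hepatic lipase, a secreted lipase that hydrolyses triglycerides and phospholipids of lipoproteins and is best known from liver.

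The 250 bases before the RefSeq start of each gene are shown because the genes share a direction with HIF1A siRNA and the HIF core can be looked for in them. They come from RefSeq (GRCh38.p14, plus strand, 3 of 3 genes matched), whereas the counts were made on hg19: chr2:218781897-218782146 for CYP27A1, chr16:69107290-69107539 for HAS3 and chr15:58431741-58431990 for LIPC. Capitals mark matches, on either strand, to the HIF cores ACGTG (in 18.5% of promoters) and GCGTG (in 32.2%), the nuclear receptor half-site AGGTCA, the HNF4 core CAAAGTCCA and the Sp1 box GGGCGG.
CYP27A1: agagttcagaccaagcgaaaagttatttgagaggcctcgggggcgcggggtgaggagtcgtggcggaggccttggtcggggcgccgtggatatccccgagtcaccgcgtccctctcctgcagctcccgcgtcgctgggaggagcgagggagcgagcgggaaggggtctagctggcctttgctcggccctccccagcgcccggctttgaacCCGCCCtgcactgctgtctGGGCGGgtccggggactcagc
HAS3: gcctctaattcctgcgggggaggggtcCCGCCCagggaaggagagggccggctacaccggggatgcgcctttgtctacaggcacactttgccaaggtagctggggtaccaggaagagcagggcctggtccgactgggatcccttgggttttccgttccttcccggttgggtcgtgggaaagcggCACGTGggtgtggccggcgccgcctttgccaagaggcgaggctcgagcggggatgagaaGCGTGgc
LIPC: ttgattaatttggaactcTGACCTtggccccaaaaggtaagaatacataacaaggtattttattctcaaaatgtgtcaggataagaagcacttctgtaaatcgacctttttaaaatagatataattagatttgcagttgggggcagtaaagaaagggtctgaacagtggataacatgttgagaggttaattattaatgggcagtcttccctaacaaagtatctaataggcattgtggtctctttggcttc
The HAS3 window held CACGTG, which reads as ACGTG on both strands in overlapping letters and begins 66 bases before the start, and GCGTG beginning 7 bases before it. Neither core occurred in the windows of CYP27A1 and LIPC, and 43.2% of 35116 RefSeq promoters of the same length held at least 1 of them. GGGCGG occurred 2 times in CYP27A1 and 1 time in HAS3 (42.6% of promoters held it). In LIPC, AGGTCA read on the minus strand began 232 bases before the start (12.1% of promoters held it). The HNF4 core, held by 0.325% of promoters, was in none of the 3 windows. The windows of CYP27A1 and HAS3 were GC-rich, at 68.8% and 66.0%, and that of LIPC was at 36.0%. These matches describe letters only, and no binding was measured.

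Each targeted mRNA was lowest in the groups given its siRNA. HIF1A mRNA was at 120, 58.2 and 112 CPM with control siRNA and 111, 116 and 136 with HIF2A siRNA, against 14.99, 17.8 and 22.2 with its own siRNA and 24.2, 32.2 and 29.7 in the double knockdown (replicates 1, 2 and 3 in this and each later sentence of 3 values). EPAS1 ranged from 138 to 171 CPM with control siRNA and from 101 to 134 with HIF1A siRNA, and from 9.16 to 11.9 with HIF2A siRNA and 7.01 to 11.3 in the double knockdown. With HIF1A siRNA, EPAS1 was at 0.622, 0.770 and 0.785 times its control level, and these groups did not overlap. The double knockdown thus kept more HIF1A mRNA than HIF1A siRNA alone, 1.34 to 1.80 times as much within the replicate numbers. Renal and clear cell carcinoma markers were detected (9 of 9 genes, summed level 4494 to 7814 CPM over the 12 libraries), including PAX8, PAX2 and CA9. VIM had the largest share, with group means of 3661 to 4611 CPM. CA9 and NDUFA4L2 (2 of 9) were lower with HIF1A siRNA against control siRNA (adjusted p under 0.05, edgeR), beside 1.14% of all genes. The same 2 passed in that direction in the double knockdown against HIF2A siRNA (1.18%). Mean CA9 was 226 CPM with control siRNA, 18.7 with HIF1A siRNA, 305 with HIF2A siRNA and 13.0 in the double knockdown. The endothelial markers PECAM1, CDH5, VWF and KDR were at or under 0.432 CPM each. Among 4 immune markers, PTPRC and CD3E had 0 counts in every library, and LYZ was at 0.268 to 2.16 CPM. CD68, a macrophage marker that other cells also express, was at 32.6 to 65.1 CPM. Of 6 hepatocyte markers, TTR, FGB and CYP3A4 stayed under 1 CPM in every library, APOA1 reached 2.01, ALB 8.46 and SERPINA1 17.2 CPM. The summed level of the hepatocyte markers was 11.99 to 21.1 CPM with control siRNA, 17.6 to 19.6 with HIF1A siRNA, 13.5 to 22.6 with HIF2A siRNA and 9.55 to 17.5 in the double knockdown, ranges that overlapped.

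CYP27A1 was at 18.4, 18.4 and 13.1 CPM with control siRNA and at 40.8, 32.5 and 21.5 with HIF1A siRNA. The groups did not overlap, and replicate 3 was the lowest library of both. With HIF2A siRNA it was at 16.8, 19.8 and 9.96 CPM, and in the double knockdown at 29.5, 24.1 and 14.7. These groups overlapped each other, since replicate 3 was again lowest and its double knockdown library lay under replicates 1 and 2 of HIF2A siRNA. The group means rose in the order HIF2A siRNA (15.5 ± 5.06), control siRNA (16.6 ± 3.07), double knockdown (22.7 ± 7.52) and HIF1A siRNA (31.6 ± 9.67 CPM, SD, n = 3 each). Each mean differed from the next by less than the larger of their SDs.

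HAS3 was at 26.0, 19.9 and 47.6 CPM with control siRNA and at 46.9, 33.9 and 67.6 with HIF1A siRNA. Replicate 3 was the highest library of both groups, and the groups overlapped because control replicate 3 lay above HIF1A siRNA replicates 1 and 2. It was at 29.7, 20.7 and 40.4 CPM with HIF2A siRNA and at 40.1, 48.1 and 53.1 in the double knockdown. Here too the groups overlapped, by 1 library, with HIF2A siRNA replicate 3 just above double knockdown replicate 1. Replicate 2 was the lowest library of the control, HIF1A and HIF2A siRNA groups but not of the double knockdown. The means were 31.2 ± 14.6, 49.5 ± 17.0, 30.3 ± 9.83 and 47.1 ± 6.53 CPM (SD, n = 3 each, in the order control, HIF1A, HIF2A and both siRNAs), so that HIF2A siRNA lay beside control siRNA and the double knockdown beside HIF1A siRNA. In the order HIF2A siRNA, control siRNA, double knockdown and HIF1A siRNA, neighbouring means differed by less than the larger of their SDs, except for control siRNA and the double knockdown.

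LIPC was at 28.7, 36.9 and 19.3 CPM with control siRNA and at 46.1, 52.8 and 30.0 with HIF1A siRNA. Replicate 2 was highest and replicate 3 lowest in both groups, which overlapped. With HIF2A siRNA LIPC was at 35.5, 39.9 and 23.8 CPM, and in the double knockdown it was at 76.5, 80.6 and 48.0. The last of these groups lay above all libraries with HIF2A siRNA and with control siRNA, and overlapped HIF1A siRNA alone through its replicate 3. The means rose in the order control siRNA (28.3 ± 8.83), HIF2A siRNA (33.1 ± 8.29), HIF1A siRNA (43.0 ± 11.7) and double knockdown (68.4 ± 17.8 CPM, SD, n = 3 each). Between neighbours in this order, only HIF1A siRNA and the double knockdown differed by more than both of their SDs.

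**Figure D1:**
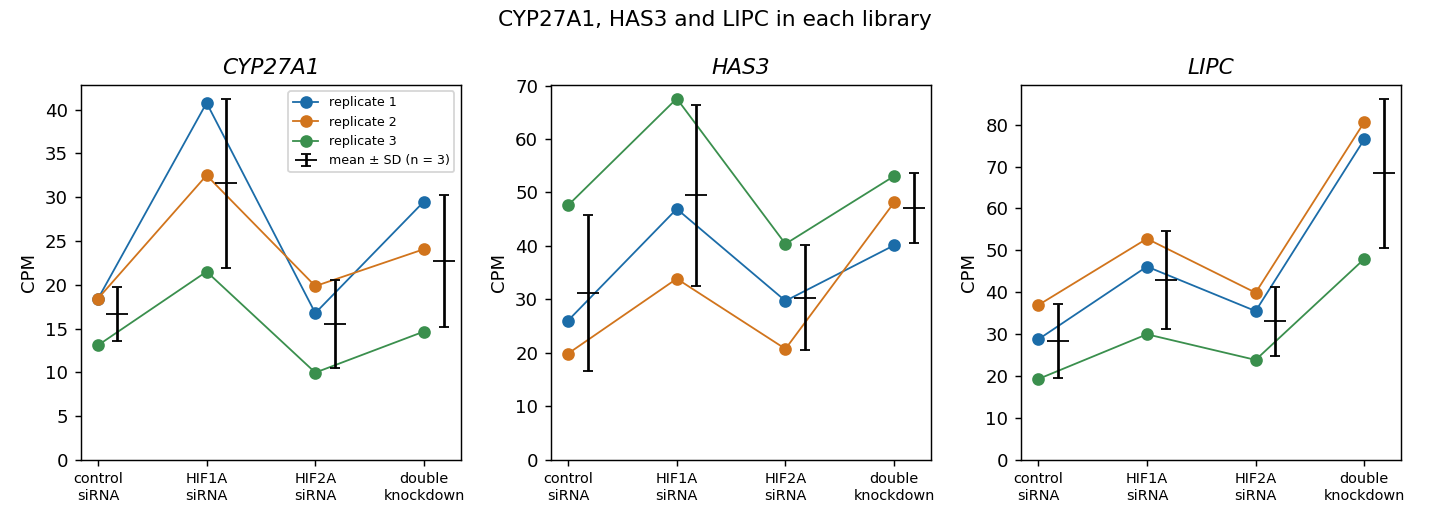
CPM of CYP27A1, HAS3 and LIPC (vertical axes, from 0) in each of the 12 libraries by siRNA group; lines join libraries with the same replicate number and black marks give the mean ± SD (n = 3). Every line goes up from control to HIF1A siRNA and from HIF2A siRNA to the double knockdown, and replicate 3 is lowest for CYP27A1 and LIPC and highest for HAS3 in all 4 groups.

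Much of the spread within groups followed the replicate number. On the log2 scale, 41.3% of the variance of CYP27A1 over the 12 libraries went with replicate number, as did 44.04% for HAS3 and 33.4% for LIPC. The siRNA group took 53.9%, 43.5% and 66.1%, which left 4.76%, 12.4% and 0.569%. Within the replicate numbers, CYP27A1 with HIF1A siRNA was 2.22, 1.77 and 1.64 times its level with control siRNA. HAS3 was at 1.80, 1.70 and 1.42 times and LIPC at 1.61, 1.43 and 1.55 times control. Replicate number was kept as a block in each fit because the study's own test pairs conditions by biological replicate.

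HIF1A siRNA against control siRNA is the comparison that chose the 3 genes, and its values are a description. In a fit of the 9 libraries without the double knockdown, the log2 fold change was 0.90 for CYP27A1 (standard error 0.16), 0.70 for HAS3 (0.13) and 0.61 for LIPC (0.12), which are folds of 1.87, 1.63 and 1.53. Of 12830 genes tested in that fit, 0.0312% were higher at an adjusted p under 0.05, namely these 3 and CD99, which was not picked, and 1.14% were lower. All 3 genes passed the filter on low counts in each fit. LIPC was the last gene inside the limit. The next genes outside it were IL6R, the interleukin-6 receptor gene, at 3.42 and 7.13 CPM with control and HIF1A siRNA (log2 fold change 1.08), AK5, an adenylate kinase gene, at 35.2 and 51.6 CPM (0.55), AP1M2, a clathrin adaptor subunit gene, at 80.3 and 112 CPM (0.47) and LOC100134868, at 0.0618 and 0.985 CPM.

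The effect of HIF1A siRNA was also tested with HIF2A siRNA present, by comparing the double knockdown with HIF2A siRNA. These libraries were on neither side of the choosing comparison, but those with HIF2A siRNA were part of its fit. The genes were also chosen with earlier results of these data known, so the test is not guaranteed to be independent of the choice. LIPC rose in the double knockdown and was at 2.15, 2.02 and 2.01 times its level with HIF2A siRNA within the replicate numbers. Its log2 fold change was 1.05 (standard error 0.12; Benjamini-Hochberg adjusted p = 0.0074 over 12610 genes, edgeR quasi-likelihood test of the 6 libraries). Of the genes tested, 0.119% (15 genes) passed in this direction and 1.18% in the other, and LIPC had the smallest p among all genes that were higher. Its adjusted p was under 0.05 in 14 of 15 alternative fits and 0.35 without replicate number as a block.

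CYP27A1 and HAS3 were also higher with the double knockdown than with HIF2A siRNA in 3 of 3 replicate numbers, but neither passed the limit over all genes. CYP27A1 was at 1.76, 1.21 and 1.47 times, with a log2 fold change of 0.55 (95% confidence interval 0.16 to 0.95; adjusted p = 0.23, edgeR, unadjusted p = 0.012). HAS3 was at 1.35, 2.32 and 1.31 times, with a log2 fold change of 0.67 (0.24 to 1.11; adjusted p = 0.20, edgeR, unadjusted p = 0.0074). Replicate 2 stood apart for both genes, with the smallest ratio of CYP27A1 and the largest of HAS3. Without replicate 2 the log2 fold changes were 0.70 (adjusted p = 0.0018, edgeR) and 0.41 (adjusted p = 0.0074, edgeR), and without HIF2A siRNA replicate 2 or double knockdown replicate 2 alone both genes passed as well. HAS3 also passed without replicate 1 (0.80, adjusted p = 0.042, edgeR) and with all 12 libraries in the fit (0.70, adjusted p = 0.038, edgeR). Without replicate 2 this comparison called 1568 genes (12.3%) in place of 164 (1.3%). It called 12.8% of all genes without HIF2A siRNA replicate 2 and 11.9% without double knockdown replicate 2. The shares were 2.19% without replicate 1 and 4% with all 12 libraries.

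**Figure D2:**
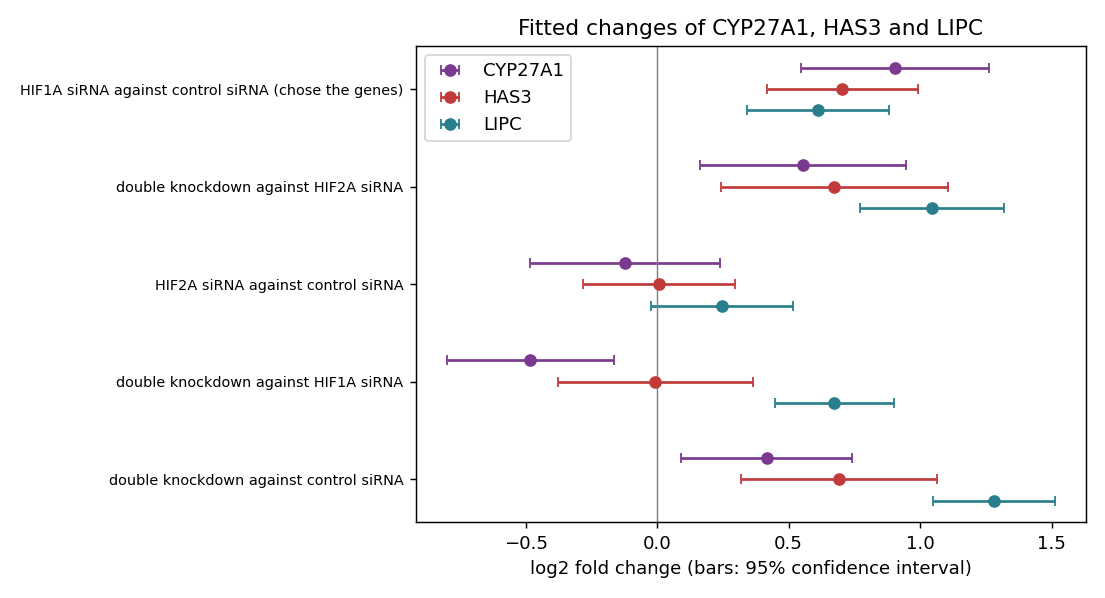
Fitted log2 fold change (horizontal axis) of each gene in 5 comparisons, with 95% confidence intervals as bars; the top comparison chose the genes, and the lower 3 share libraries with it. The intervals of all 3 genes lie above 0 in the double knockdown against HIF2A siRNA, and CYP27A1, HAS3 and LIPC fall to the left of, at and to the right of 0 in the double knockdown against HIF1A siRNA.

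HIF2A siRNA alone shared its control libraries with the choosing comparison, and no test is given for it. The log2 fold change against control siRNA was -0.12 for CYP27A1 (95% confidence interval -0.48 to 0.24), 0.01 for HAS3 (-0.28 to 0.30) and 0.25 for LIPC (-0.02 to 0.52). LIPC was 1.24, 1.08 and 1.24 times its control level, higher in 3 of 3 replicate numbers, while CYP27A1 was higher in 1 of 3 and HAS3 in 2 of 3. Over all 12830 genes, 0 were called higher with HIF2A siRNA by edgeR (320 at an unadjusted p under 0.05, and 11 by DESeq2), and 0.0857% were called lower.

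The double knockdown can also be set beside HIF1A siRNA alone. CYP27A1 was lower in the double knockdown, at 0.724, 0.740 and 0.682 times its level with HIF1A siRNA. LIPC was higher, at 1.66, 1.53 and 1.60 times. HAS3 was at 0.855, 1.42 and 0.785 times, with replicate 2 on the other side from replicates 1 and 3. The difference between the HIF1A siRNA effects with and without HIF2A siRNA was -0.35 on the log2 scale for CYP27A1 (95% confidence interval -0.81 to 0.10), 0.00 for HAS3 (-0.53 to 0.53) and 0.44 for LIPC (0.11 to 0.76), in a fit of all 12 libraries. These differences hold the choosing comparison and are given without a test. Over all 13000 genes of that fit, edgeR called 0 for such a difference (318 at an unadjusted p under 0.05) and DESeq2 called 11. Against control siRNA, the double knockdown had log2 fold changes of 0.42 for CYP27A1 (standard error 0.15), 0.69 for HAS3 (0.17) and 1.28 for LIPC (0.11).

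**Figure D3:**
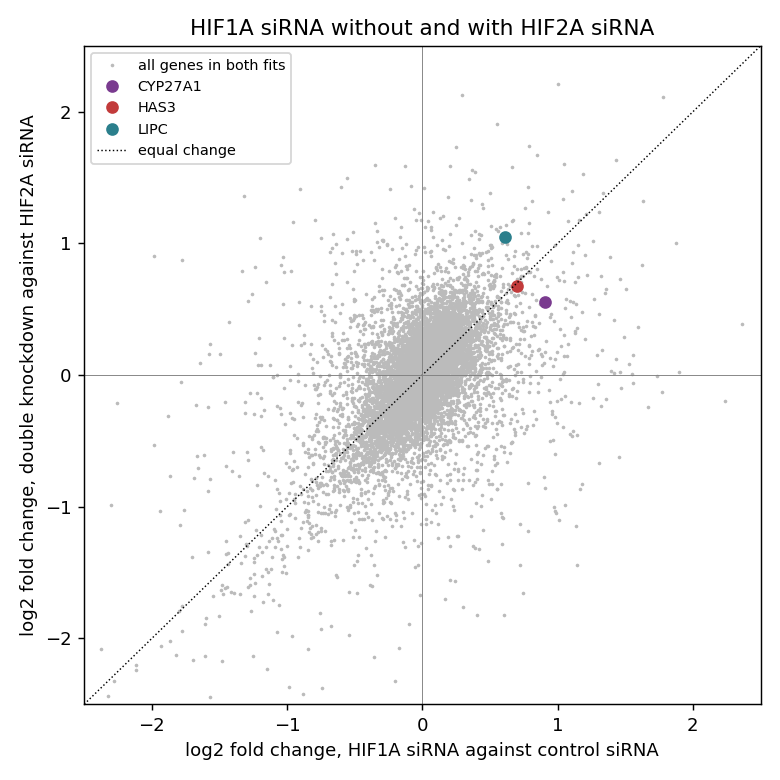
Each grey point is 1 of the 12551 genes in both fits, with its log2 fold change for HIF1A siRNA against control siRNA (horizontal axis) and for the double knockdown against HIF2A siRNA (vertical axis); 33 genes lie outside the axes. HAS3 lies close to the dotted line of equal change (0.70 and 0.67), LIPC above it (0.61 and 1.05) and CYP27A1 below it (0.90 and 0.55).

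The 3 genes were alike in direction but not in detail. After centring on each replicate number, Pearson's r of log2(CPM + 0.5) over the 12 libraries was 0.77 between CYP27A1 and HAS3, 0.72 between HAS3 and LIPC and 0.51 between CYP27A1 and LIPC. The libraries share groups and the genes were picked together, so these values are a description. Without centring the values were 0.06, 0.06 and 0.67, since replicate 3 was high for HAS3 and low for the other 2 genes. Of 12999 other genes, the 5 most like CYP27A1 by this measure, with r from 0.88 to 0.92, were KATNA1, ANAPC13, AK5, ZNF277 and CYBASC3. Those most like HAS3, with r from 0.92 to 0.95, were SNTB2, RDH10, COX18, EXOSC1 and HMGB3. Those most like LIPC, with r from 0.96 to 0.98, were B3GALNT2, AKR1B1, GNG4, FBXO9 and ARL6IP1. These genes were picked by their correlation over the same libraries, so an order of means shared with a member follows from the choice. AKR1B1, which encodes aldose reductase, had means of 1458 ± 89.9 CPM for control siRNA, 1906 ± 93.0 for HIF1A siRNA, 1553 ± 91.2 for HIF2A siRNA and 2358 ± 200.3 in the double knockdown (SD, n = 3 each). GNG4, a G protein gamma subunit gene, went from 13.1 ± 2.04 to 19.3 ± 2.34, 17.0 ± 2.04 and 36.3 ± 3.76 CPM in these groups (SD, n = 3 each).

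Genes beside them on the chromosome were checked in the RefSeq order. SNTB2, the gene most like HAS3, is also the second counted gene after it, and had log2 fold changes of 0.29 (adjusted p = 0.63) with HIF1A siRNA against control siRNA and 0.35 (adjusted p = 0.36, both from edgeR) in the double knockdown against HIF2A siRNA. CIRH1A, between them, was at 0.04 and 0.16, and neither passed. RefSeq has TANGO6 and CHTF8 overlapping HAS3, and their log2 fold changes were 0.11 and -0.04 with HIF1A siRNA and -0.11 and -0.22 in the double knockdown against HIF2A siRNA, none of which passed. The sources used here do not state whether counting used strand, so fragments of genes on opposite strands could be mixed. LIPC overlaps the antisense gene LIPC-AS1, which has no row in the counts. Of its neighbours, AQP9 and ALDH1A2 reached at most 6 counts in any library, and ADAM10, a metalloprotease gene, had log2 fold changes of -0.20 and -0.45 in these comparisons. Next to CYP27A1, TTLL4 was at -0.10 and 0.02 and STK36 at -0.16 and -0.02, while PRKAG3 had 0 counts. Of the neighbours, TTLL4, STK36, CIRH1A, SNTB2 and ADAM10 passed the filter, and none of these was called in either comparison. The rest, which include WNT6, CDH1, CDH3 and HSP90AB4P, had at most 16 counts in any library and were not tested.

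Relatives of the 3 genes had few or no counts. HAS2 had 0 counts in all 12 libraries and HAS1 at most 1, where 3 counts, the limit that a count of 0 allows, correspond to 0.147 to 0.226 CPM. Divided by the length of the canonical GENCODE transcript, HAS3 was at 7.44 ± 3.47 CPM per kb with control siRNA, CYP27A1 at 8.77 ± 1.62 and LIPC at 11.1 ± 3.45 (SD, n = 3 each). CYP27A1 differed from both by less than the larger SD, and LIPC was above HAS3 by slightly more than either SD. CYP27B1, the vitamin D 1-alpha-hydroxylase, was at 0.416 ± 0.137 CPM per kb and LIPG, endothelial lipase, at 0.214 ± 0.112 (SD, n = 3 each). CYP27C1, LPL and PNLIP had 0 counts in every library, CYP24A1 at most 2 and LIPH at most 23. For comparison, HIF1A and EPAS1 were at 24.5 ± 8.51 and 30.5 ± 3.28 CPM per kb with control siRNA (SD, n = 3 each).

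Of 26 bile acid and oxysterol genes other than CYP27A1 with a row in the counts, 12 passed the filter, and 0 were called by edgeR with HIF1A siRNA against control siRNA (background over all genes in either direction 1.17%) or in the double knockdown against HIF2A siRNA (1.3%). DESeq2 called 0 in both. In the double knockdown against HIF2A siRNA, 3 of the 12 were called without replicate 2, and also without HIF2A siRNA replicate 2 or double knockdown replicate 2 alone, fits that called 12.3%, 12.8% and 11.9% of all genes. The median log2 fold changes were -0.03 and -0.06, beside 0.00 and 0.01 over all genes. AMACR, a racemase of bile acid intermediates, was the only one higher at an unadjusted p under 0.05, with log2 fold changes of 0.51 and 0.43 (adjusted p = 0.23 and 0.27, edgeR). FDX1 and FDXR, ferredoxin and its reductase, pass electrons to CYP27A1. FDX1 had log2 fold changes of 0.22 and 0.23, and FDXR of 0.10 and -0.61 (adjusted p = 0.20 for the last, edgeR). BAAT, which conjugates bile acids to amino acids, was at -0.09 and -0.36.

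Among 18 genes of the liver X receptors, which 27-hydroxycholesterol can activate, and of cholesterol export, 15 passed the filter. SCD, which encodes stearoyl-CoA desaturase, was called lower in both comparisons, which is 1 of 15 beside 1.17% and 1.3% of all genes, and no gene was called higher. Without replicate 2, or without either of its libraries alone, 3 genes of the list were called in the double knockdown against HIF2A siRNA. Those fits called 11.9% to 12.8% of all genes. SCD fell from 464 ± 47.8 CPM with control siRNA to 235 ± 74.0 with HIF1A siRNA (SD, n = 3 each; log2 fold change -1.03, adjusted p = 0.013, edgeR), and stood at 504 ± 86.1 with HIF2A siRNA against 198 ± 57.0 in the double knockdown (SD, n = 3 each; -1.37, adjusted p = 0.0053, edgeR). The first of these calls was lost without replicate 1 (-0.70), without HIF1A siRNA replicate 1 (-0.83) and without HIF1A siRNA replicate 2 (-1.01), and both were lost without replicate number as a block. SREBF1, whose product drives fatty acid synthesis genes, had log2 fold changes of -0.49 (adjusted p = 0.35) and -0.45 (adjusted p = 0.21, edgeR). ABCA1, the cholesterol exporter, was at -0.28 and 0.16. The medians of the list were 0.05 and 0.04.

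The hyaluronan genes other than HAS3 gave 0 calls by edgeR or DESeq2 in either comparison, with 23 and 21 of 35 passing the filter. In the double knockdown against HIF2A siRNA, edgeR called 4 without replicate 2 (beside 12.3% of all genes) or without HIF2A siRNA replicate 2 (12.8%). It called 3 without double knockdown replicate 2 (11.9%) and 1 with all 12 libraries in the fit (4%). The median log2 fold changes of the list were 0.01 and -0.09. CD44, the main hyaluronan receptor, was at 797 ± 65.8 CPM with control siRNA, 746 ± 114 with HIF1A siRNA, 679 ± 92.1 with HIF2A siRNA and 683 ± 130 in the double knockdown (SD, n = 3 each). UAP1 and UGDH make sugar nucleotides that HAS3 uses, and had log2 fold changes of -0.26 and -0.22 with HIF1A siRNA and -0.41 and -0.13 in the double knockdown against HIF2A siRNA. Of the hyaluronidases, HYAL1 was at 0.36 and 0.25 and HYAL3 at -0.61 and -0.21. LAYN, a hyaluronan receptor, had the smallest p of the list in the double knockdown against HIF2A siRNA (-0.52, adjusted p = 0.11, edgeR). At an unadjusted p under 0.05, 1 gene was higher and 2 were lower with HIF1A siRNA, and 0 were higher and 2 lower in the other comparison. Over all genes, 2.42% were higher and 4.9% lower at that limit in the first comparison and 5.27% and 7.49% in the other.

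LIPC, which was chosen for its rise with HIF1A siRNA, was higher while most of the other lipase and lipoprotein genes had negative log2 fold changes. Of 32 others, 17 were tested with HIF1A siRNA against control siRNA, 4 of them with a positive log2 fold change and a median of -0.22, and 18 in the double knockdown against HIF2A siRNA, 5 positive with a median of -0.25. The medians of all genes were 0.00 and 0.01. None was called by edgeR in the first comparison, beside 1.17% of all genes. At an unadjusted p under 0.05, 4 were lower and 0 higher (edgeR), beside 4.9% and 2.42% of all genes. DESeq2 called 2 of the list and 236 of all genes. In 8 of 19 alternatives, DESeq2 included, 1 or 2 of the list were called. Among them were the fits without control siRNA replicate 1, control siRNA replicate 2, HIF2A siRNA replicate 2 or all libraries of replicate 1 or 2. Fits with libraries left out called 66 to 219 of all genes. In the double knockdown against HIF2A siRNA, ANGPTL4 and LRP1 were called lower, 2 of 18 beside 1.18% of all genes. DESeq2 called 3 there, beside 2.86% of all genes in either direction. The edgeR count was 1 to 4 with libraries left out, highest without replicate 2 or either of its libraries. Those fits called 0.92% to 12.8% of all genes in either direction, and 11.9% to 12.8% without replicate 2 or either of its libraries. ANGPTL4, an inhibitor of lipoprotein lipase, went from 13.8 ± 6.76 CPM with HIF2A siRNA to 4.69 ± 4.19 in the double knockdown (SD, n = 3 each; log2 fold change -1.80, adjusted p = 0.041, edgeR). LRP1, a receptor that takes up lipoprotein remnants, went from 493 ± 112 to 282 ± 83.7 CPM (SD, n = 3 each; -0.82, adjusted p = 0.036, edgeR), a call that was lost without replicate 3 (-0.90, adjusted p = 0.13, edgeR), without replicate 3 of either group alone (-0.89 each) and without HIF2A siRNA replicate 1 (-0.88). Both calls were lost without replicate number as a block. VLDLR, a lipoprotein receptor of the same family, had log2 fold changes of -0.64 with HIF1A siRNA and -0.72 in the double knockdown against HIF2A siRNA, and did not pass.

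**Figure D4:**
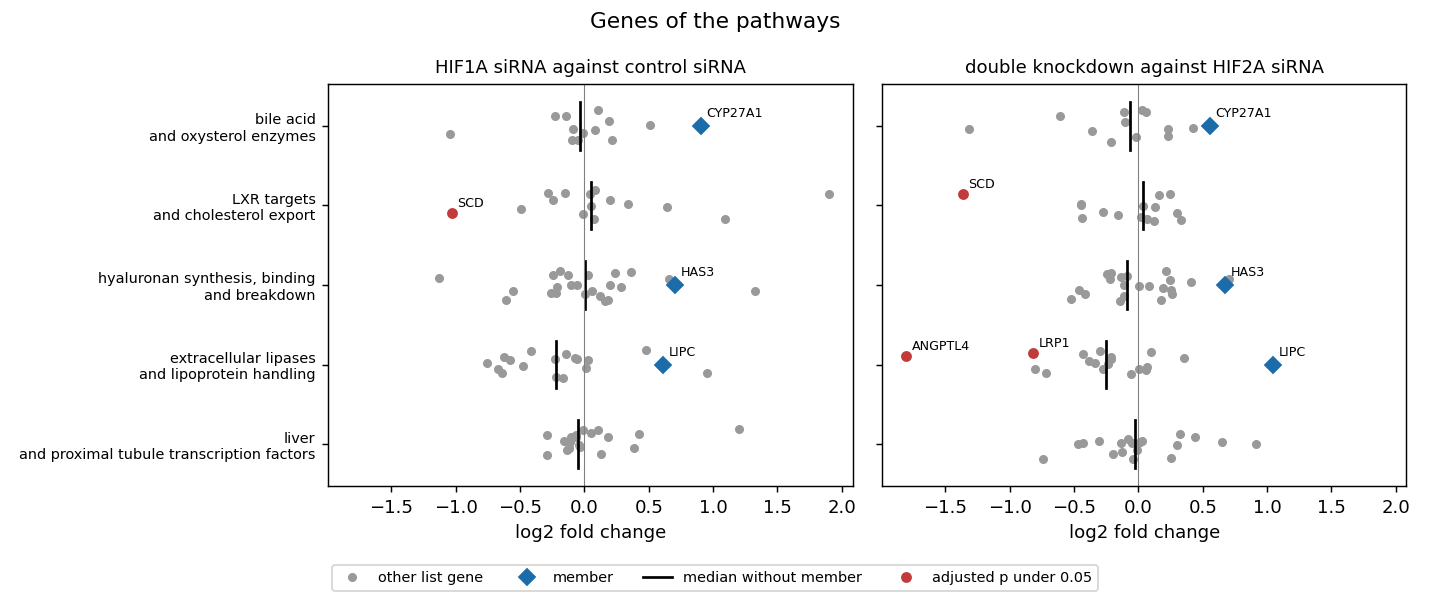
Log2 fold changes (horizontal axis) of the tested genes of 5 lists, for HIF1A siRNA against control siRNA (left) and the double knockdown against HIF2A siRNA (right); blue diamonds are CYP27A1, HAS3 and LIPC, red points other genes with an adjusted p under 0.05 and black bars the list medians without the diamonds. The diamonds lie right of their list medians, which in the left panel follows from how these genes were chosen. The named red genes, SCD, ANGPTL4 and LRP1, lie left of 0.

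Transcription factors of liver and proximal tubule were measured too. HNF4A, a nuclear receptor that drives hepatocyte genes, had at most 8 counts in any library. Of 29 factors 20 passed the filter, and 0 were called by edgeR in either comparison, with 1 higher and 1 lower at an unadjusted p under 0.05 with HIF1A siRNA and 2 and 2 in the double knockdown against HIF2A siRNA (DESeq2 called 0 and 1). Of all genes, edgeR called 1.17% and 1.3%, and DESeq2 called 2.86% in the double knockdown against HIF2A siRNA. At that unadjusted limit, 2.42% were higher and 4.9% lower in the first comparison. In the second, the shares were 5.27% and 7.49%. In the double knockdown against HIF2A siRNA, edgeR called 3 factors with all 12 libraries in the fit, beside 4% of all genes. It called 5 without replicate 2 or either of its libraries, beside 11.9% to 12.8% of all genes. PPARG, a nuclear receptor of lipid storage, had log2 fold changes of 0.42 (adjusted p = 0.24) and 0.44 (adjusted p = 0.22, edgeR), and NR1H4, the bile acid receptor FXR, of -0.16 and -0.74 (adjusted p = 0.11 for the last, edgeR). With HIF2A siRNA against control siRNA, edgeR called 0 genes on each of the 5 lists, beside 0.0857% of all genes. At an unadjusted p under 0.05, 4 were higher and 5 lower in all, beside 2.49% and 2.88% of all genes. The higher included 3 of 15 liver X receptor and cholesterol export genes, and the lower 4 of 23 hyaluronan genes. DESeq2 called 1, a hyaluronan gene, beside 58 of all genes.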

How the data were processed

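RNA-seq was done on 12 RCC4 libraries (poly(A) selection, a directional kit). According to the methods and the submitters' processing notes, the authors trimmed reads with Trim Galore 0.3.3, aligned them to hg19 with HISAT2 2.05, dropped fragments without a unique position with Picard 2.0.1, counted per UCSC gene with HTSeq 0.5.4p3 in intersection-strict mode and deposited unnormalised counts, which bear no depth or length correction.

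Counts were fitted in edgeR 4.0.16 (R 4.3.3) with TMM factors, edgeR's filter (minimum count 10, minimum total 15) and the quasi-likelihood test, with replicate number as a block, as in the study's own DESeq2 test. HIF1A siRNA and HIF2A siRNA against control siRNA came from the 9 libraries without the double knockdown, double knockdown against HIF2A siRNA from its 6 libraries, and comparisons of the double knockdown with the other groups from all 12. Adjusted p-values (Benjamini-Hochberg) cover all genes of a fit, and a gene was called at an adjusted p under 0.05. Standard errors of log2 fold changes were worked back from the fold change and the statistic of the quasi-likelihood test. The confidence intervals of log2 fold changes were built from them. The 3 genes and all lists were chosen with earlier results of these data known. Named besides them were the targeted genes, relatives, the 2 nearest counted genes per side, the 5 most alike genes, the genes next to the limit, and list genes that were called or among the 3 smallest p. ABCA1, CD44, UGDH and HNF4A were added for their roles after values were seen. Alternatives were DESeq2 1.42.0, its size factors, other count filters, no block, other libraries in the fit and leaving out libraries. The scripts were tested on simulated data. Sequences and gene order came from RefSeq (GRCh38.p14). Labels give replicate numbers but not separate cultures, while the study's methods call the replicates biological. The p-values measure the spread between these samples, and intervals cover that spread or, for a floor of 3 counts, counting error only. Between replicates of a group, counts differed beyond sampling noise (chi-square per degree of freedom 16.3 to 122).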

Additional observations from a re-analysis of the deposited data

How the results depend on the processing

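The log2 fold changes of CYP27A1, HAS3 and LIPC stayed positive in the double knockdown against HIF2A siRNA under 15 alternatives each. Leaving out libraries gave 0.42 to 0.70 for CYP27A1, 0.41 to 0.82 for HAS3 and 1.01 to 1.07 for LIPC. LIPC lost its call only without the replicate block (1.05, adjusted p = 0.35, edgeR). HAS3 gained one with all 12 libraries (0.70), a fit that called 4% of all genes. Over all alternatives, 0 to 3 of the 3 genes passed. All 3 passed without replicate 2 or either of its libraries, in fits that called 11.9% to 12.8% of all genes. None passed without the replicate block, where 0.42% of all genes were called. In the comparison that chose them, values ran from 0.77 to 1.01, 0.62 to 0.82 and 0.57 to 0.68 over 19 alternatives.

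Counts of calls moved more. For the double knockdown against HIF2A siRNA they were 249 (37 higher) with no filter, 361 (55) with DESeq2, 520 (102) with all 12 libraries and, with a library or replicate number left out, 118 to 1640 (7 to 714), the highest without HIF2A siRNA replicate 2. For HIF1A siRNA against control siRNA, 11 were higher with no filter and 8 with all 12 libraries, DESeq2 called 236 (15), and left-out libraries gave 66 to 219 (1 to 23). For HIF2A siRNA against control siRNA there were 41 (8) with no filter, 58 (11) with DESeq2, 26 (1) with all 12 libraries, 3 with only the 6 libraries compared and 1 to 33 (0 to 7) with libraries left out. Without the replicate block the 3 comparisons called 53 (0), 41 (1) and 1. Deviations from group means correlated at 0.0991 to 0.813 between same-numbered libraries of different groups, against -0.724 to 0.527 for different numbers. These ranges overlapped, and replicate 3 was the clearest (0.724 to 0.813). Control siRNA replicate 2 was at 0.231 with HIF2A siRNA replicate 2 but at 0.527 with HIF2A siRNA replicate 1. Deviations sum to 0 within a group, which by itself pulls correlations between different numbers down. The study's methods pair libraries by replicate. The log2 fold change of SCD in HIF2A siRNA against control siRNA ran from -0.095 to 0.39 with libraries left out and that of LRP1 from -0.13 to 0.24, negative in 4 and 2 fits. The cause of these shifts was not tested.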
